A study of Homo sapiens with 18 samples.

Results

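The comparison described here set ribosome footprints against messenger RNA in NCI-H1975 cells that carried the sgDAMP guide. NCI-H1975 is an established human lung adenocarcinoma line with mutant EGFR. The series holds 18 libraries of this line, made as ribo-seq and as mRNA-seq from Scramble, sgControl and sgDAMP cells with 3 libraries in each of the 6 groups. The comparison took the 3 sgDAMP ribo-seq libraries and the 3 sgDAMP input_mRNA libraries, 6 of the 18, chosen by their titles. sgDAMP cells are given as a DAMP knockout, and the series title places the DAMP peptide in the transcript DSP-AS1 and relates it to YTHDF1 and to translation initiation. sgControl cells carried a control guide and were used for the difference from sgDAMP and for some values set beside those of sgDAMP without a test. Cells for ribo-seq were treated with 100 µg/ml cycloheximide before harvest. The labels name no clone and no separate cultures, so p-values measure only the spread between these libraries, which may be technical.

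Ribosome profiling reads the stretches of mRNA that ribosomes shield from nuclease. A gene's footprint count therefore follows both how much of its mRNA is present and how many ribosomes sit on it, and the ratio of footprints to mRNA is commonly used as its translational efficiency. That reading needs both assays to come from the same cells. The labels do not say whether they came from the same cultures, and the deposited files of these libraries carry the guide name sgTIAMP, so the ratios here compare the libraries as labelled. Known cases of control at this step are mRNAs of the translation machinery, which begin with a run of pyrimidines (5′ terminal oligopyrimidine, or TOP, mRNAs) and respond to mTOR, ferritin mRNAs, which carry an iron-responsive element, and ATF4 mRNA, whose upstream reading frames hold its main frame back until initiation is limited. Cycloheximide stalls elongating ribosomes and so holds them in place until lysis. In a culture, fewer cells expressing a gene and less RNA per cell cannot be told apart.

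The 3 footprint libraries held 6207783, 6864945 and 6828494 reads counted on genes, and the 3 mRNA libraries 17171514, 17455799 and 17282680. Protein-coding genes took 77.0% to 77.3% of the footprint counts and 96.9% to 98.0% of the mRNA counts. Pseudogenes took 13.87% to 14.04% of footprint counts and 0.2697% to 0.3045% of mRNA counts. Reads without a gene (unaligned, not unique, ambiguous or outside genes) came to 69.70% to 69.98% of footprint reads and 22.35% to 24.24% of mRNA reads, and reads mapped to several places to 24.99% to 25.23% and 4.738% to 5.324%. Counts per gene were scaled to CPM as described in the next paragraph. The summed level of 12 epithelial markers, of which 9 passed the filter on low counts, was 10100 to 10152 scaled CPM in footprints and 14381 to 20089 in mRNA. KRT8 alone gave 8479 to 12195 of the mRNA sum and 290 to 314 of the footprint sum. NKX2-1, SFTPB and SFTPC, defining markers of alveolar epithelium, had 0, 0 and 8 footprint counts and 3, 0 and 14 mRNA counts. Only 2 of 8 fibroblast, 1 of 8 leukocyte and 2 of 7 endothelial markers passed the filter, and the sums cover these alone. Fibroblast markers summed to 7.78 to 9.02 scaled CPM in footprints and 4.89 to 10.5 in mRNA. Leukocyte markers summed to at most 1.21 and 5.22, and endothelial markers to 0 and at most 1.84. PTPRC, CD3E, MS4A1, COL1A2 and POSTN had no count in either assay.

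The footprint libraries differed from each other by little more than sampling noise. Over 10014 genes the mean chi-square per degree of freedom was 0.968 (0.903 over the lowest 99% of genes), against 126 (74.6) for the 3 mRNA libraries. Only 6 genes differed beyond sampling, RPS19, RPL28, RPL37A, RPS3, TXNRD1 and RPS25. The footprint libraries were counted as 1 sample, and their sum was compared with the 3 mRNA libraries. The lone footprint sample was taken to vary as the mRNA libraries do. Levels are CPM of coding reads after TMM scaling (scaled CPM), and a log2 ratio is the log2 of scaled footprints over scaled mRNA. CPM is not divided by gene length, so levels are compared within a gene only. Adjusted p-values come from edgeR's quasi-likelihood test with Benjamini-Hochberg adjustment over 13068 tested coding genes. A gene is called at an adjusted p under 0.05. Except in the stated alternatives and the test against sgControl, n is 1 summed footprint sample against 3 mRNA libraries.

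Footprint and mRNA levels differed widely across genes. Of 13068 coding genes, 4045 (31.0%) were called higher in footprints and 4617 (35.3%) lower, 66.3% in either direction. The median log2 ratio was -0.27, with quartiles at -2.37 and 1.75, and the 5th and 95th percentiles lay at -6.24 and 4.53. A further 6242 coding genes did not pass the filter and were not tested. Many genes share part of their span with another gene, and with the strand setting not given in the sources used here their reads cannot be told apart. Such genes include DSP, CCL5, SLPI, CTSD, H3C15, H2AC19, FTH1, RPS2, MDM2, EGFR, HSP90B1, ENO1, KRT8, BCL2L1, TWIST1 and CDK4. In coding genes that overlap no other, 1662 were higher and 1882 lower. In 10858 genes (83.1%) the 3 footprint values lay wholly above or wholly below the 3 mRNA values. Spearman correlations across these genes, which describe the libraries and treat genes as points rather than replicates, were 0.993 to 0.994 among footprint libraries, 0.958 to 0.983 among mRNA libraries and 0.539 to 0.600 between the assays. Among 4864 genes with at least 10 scaled CPM in both assays, the correlation between assays was 0.268. In sgControl cells the correlation between assays was 0.465 to 0.566, and the median log2 ratio was -0.30. Leaving out mRNA library 3 gave 3323 higher and 3781 lower genes, and leaving out mRNA library 2 gave 4532 and 5004.

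**Figure D1:**
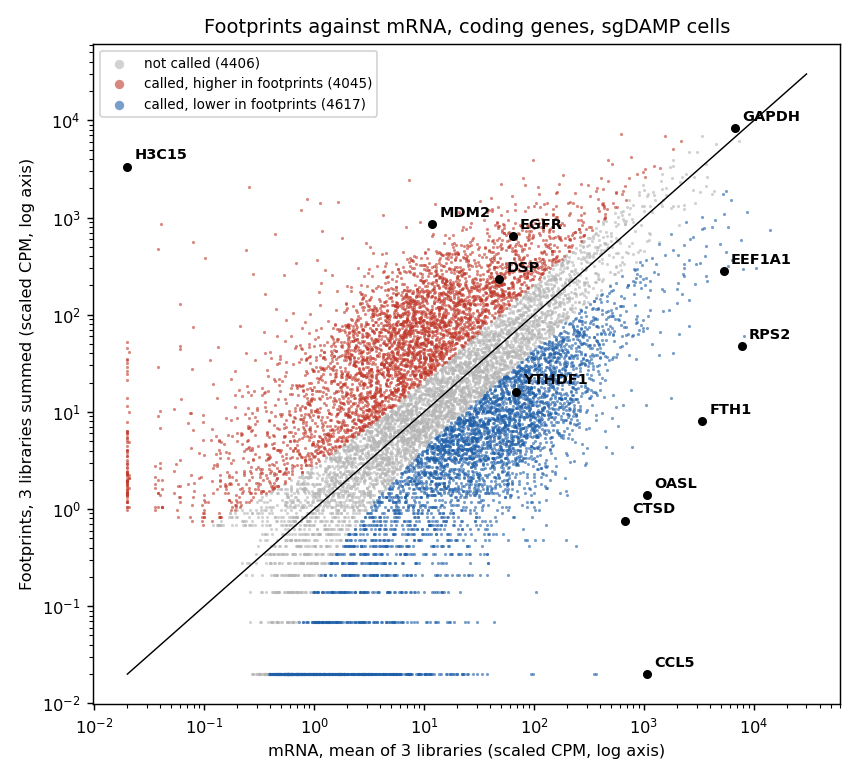
Each point is 1 of 13068 coding genes, with the mean scaled CPM of 3 mRNA libraries on the x axis and the scaled CPM of the summed footprints on the y axis, both on log axes, and the line of equal levels. The 4045 genes called higher in footprints are red, the 4617 called lower are blue, and genes at 0 are drawn at the lower edge. H3C15 stands far above the line at almost no mRNA, and CCL5 stands at the lower edge with mRNA near that of abundant genes.

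The knockout target was checked first. DSP-AS1 (ENSG00000261189, GRCh38 chromosome 6, 7540451 to 7543083), a long noncoding RNA gene that overlaps the start of DSP, had 0, 1 and 1 footprints in the sgDAMP libraries and 175, 176 and 216 in the sgControl libraries. Its mRNA counts were 319, 324 and 336 in sgDAMP cells, 979 in all, against 936 in sgControl cells. The 2 footprints in sgDAMP cells (95% Poisson interval 0.242 to 7.22) made its ratio to mRNA 140-fold lower than equal levels would give, with a counting interval of 38.6 to 1156-fold. The transcript's footprints were thus nearly absent from the libraries labelled as knockout while its mRNA count was not lower. What the guide removed is not given in the sources used here, so the mRNA count is no check of the label. DSP (chromosome 6, 7541671 to 7586714), which encodes the desmosome protein desmoplakin, had footprint levels of 238, 226 and 227 against mRNA levels of 63.5, 38.4 and 42.7 scaled CPM. The footprints were higher with no overlap, at a log2 ratio of 2.26 (SE 0.48, adjusted p = 8.25e-06).

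YTHDF1 (chromosome 20, 63195429 to 63216131), a cytoplasmic reader of m6A that is known to promote translation of its targets, had 14.2, 16.2 and 17.9 scaled CPM in footprints and 64.8, 68.5 and 73.5 in mRNA. The footprint values all lay below the mRNA values, with a log2 ratio of -2.09 (SE 0.60, adjusted p = 0.00111). GAPDH, a glycolytic enzyme often used as a reference, had 8262, 8250.4 and 8243 in footprints and 7093, 4804 and 8145 in mRNA. Its footprint values lay above the mRNA values, the nearest mRNA library by a small margin, and the log2 ratio of 0.30 (SE 0.58) was not called (adjusted p = 0.654). ACTB, cytoplasmic actin, had 1842, 1839 and 1905 in footprints and 5032, 2860.1 and 5016 in mRNA. Pseudogenes named after ACTB held a further 39257 footprints and 12 mRNA counts. Adding those counts, a choice made after the data were seen, moved the log2 ratio of ACTB from -1.21 to 0.002, with no difference left. Its footprint values were below all mRNA values, but the log2 ratio of -1.21 missed the threshold (adjusted p = 0.0785) and passed it with upper-quartile scaling (adjusted p = 0.0459) or scaling on the total coding count (adjusted p = 0.0281).

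Among abundant mRNAs, several had few or no footprints. Of 5270 tested genes with at least 1000 summed mRNA counts, 32 had at most 3 footprints in the 3 libraries together and 17 had none. The 10 lowest ratios among called genes of at least moderate level belonged to CCL5, IFNL1, SLPI, FCGBP, IFNB1, CTSD, OASL, ANKRD9, HR and EPOP. CCL5, IFNL1 and IFNB1 are a chemokine and secreted interferons, OASL is an interferon-induced protein, SLPI is a secreted protease inhibitor, and CTSD is a lysosomal protease.

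CCL5 (chromosome 17, 35871491 to 35880360) had no footprint in any library and 924, 1239 and 1025 scaled CPM in the mRNA libraries, 54717 mRNA counts in all. Against a floor of 3 footprints over the group its footprints were at least 5098-fold lower. IFNL1 had no footprint and mRNA levels of 461, 363 and 271, which makes the footprints at least 1781-fold lower. SLPI likewise had no footprint, with mRNA at 178, 485 and 391 and footprints at least 1662-fold lower. In all 3 genes mRNA was present in each mRNA library and footprints were at 0 in each footprint library. FCGBP had no footprint and 5147 mRNA counts (at least 479.6-fold lower), and IFNB1 none and 4724 (at least 440.2-fold lower). CTSD (chromosome 11, 1752755 to 1763927) had 0, 1.003 and 1.21 in footprints and 687, 537 and 774 in mRNA, a log2 ratio of -9.76 (SE 1.002, adjusted p = 7.39e-21). OASL (chromosome 12, 121017761 to 121039246) had 1.78, 1.40 and 1.01 in footprints and 954, 1135 and 1089.8 in mRNA, a log2 ratio of -9.57 (SE 0.999, adjusted p = 3.08e-20). In both genes every footprint value was lower than every mRNA value by a wide margin. ANKRD9 had 2 footprints and 5408 mRNA counts, a 756-fold lower ratio with a counting interval of 209 to 6243-fold. EPOP had 1 footprint and 2271 mRNA counts, 635-fold lower with an interval of 114 to 25086-fold. HR had 6 footprints and 12439 mRNA counts, a log2 ratio of -9.15.

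Among called genes whose mean log2 CPM reached 5, 9 of the 10 highest ratios belonged to histone genes. Replication-dependent histones package newly made DNA, and their mRNAs end in a stem-loop in place of a poly(A) tail. The mRNA libraries were made with oligo(dT) beads, which bind poly(A), and the footprint libraries were not. The part of that step in the result was not tested. Of 61 replication-dependent histone genes, 57 passed the filter on low counts, 54 were called higher and the other 3 were not called. Over all genes 31.0% were higher and 35.3% lower. The median log2 ratio of the 57 was 7.49 (7.39 with the 3 genes that had no mRNA count set at their bound). The filter passed several of these histone genes only through their footprints. Of 11 histone variants whose mRNAs carry poly(A) tails, 1 was called higher and 5 lower, with a median of -1.02 beside -0.27 over all genes. Leaving out mRNA library 2 gave 3 higher variants, and leaving out mRNA library 3 gave 3 lower ones.

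H3C15 (chromosome 1, 149852608 to 149853125), a histone H3 gene, had 3385, 3328 and 3314 scaled CPM in footprints and no count in any mRNA library. Its footprints were at least 57584-fold higher against a floor of 3 mRNA counts over the group. H2AC19 had 2009.7, 2037 and 2106 in footprints and 13 mRNA counts in all, a log2 ratio of 12.95 (adjusted p = 2.75e-73). H4C14, an abundant histone H4 gene with mRNA in each library, had 2428, 2452 and 2482 in footprints and 8.52, 6.50 and 6.88 in mRNA, a log2 ratio of 8.39 (SE 0.58, adjusted p = 1.09e-44). All 3 genes lay near the same footprint level in every footprint library. H4C1 had 12277 footprints and 2 mRNA counts, 21959-fold higher with a counting interval of 6078 to 181350-fold. H2BC12L had 6854 and 2 (12259-fold, interval 3392 to 101250-fold), and H2AC16 had 1869 and 3 (2229-fold, interval 761 to 10817-fold). H2BC14, H2BC10, H4C5 and H3C3 had log2 ratios of 12.69, 11.83, 10.82 and 10.63. Histone genes of a type have nearly identical coding sequences, and how the counting treated reads that fit several copies is not given in the sources used here, so values of single copies are uncertain.

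Among the variants, H1-10, a linker histone, had 22.9, 23.7 and 24.96 scaled CPM in footprints and 391, 246 and 352 in mRNA (log2 ratio -3.79). H2AX, which is phosphorylated at DNA breaks, had a log2 ratio of -2.74, and MACROH2A1, found on silent chromatin, one of -1.94. Each of these was lower in footprints. H2AJ stood at -1.34 and lost its call without mRNA library 3 (adjusted p = 0.215).

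The other gene among these 10 was FKBP1C. It had 454, 451 and 469 scaled CPM in footprints and 13 mRNA counts in all, a log2 ratio of 10.81 (adjusted p = 3.81e-63). Its close relative FKBP1A, the prolyl isomerase that binds rapamycin, was looked up after these values were seen. FKBP1A had 3.33, 3.01 and 2.62 in footprints and 308, 282 and 301 in mRNA, a log2 ratio of -6.64. The pair thus lay at opposite ends, and since their coding sequences are nearly the same, the division of reads between them is uncertain.

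The translation machinery was then described, beginning with cytosolic ribosomal proteins. Of 79 genes, 42 were called lower in footprints and 7 higher, with a median log2 ratio of -1.45 beside -0.27 over all tested genes and shares of 35.3% lower and 31.0% higher. Their summed level was 71117, 73310 and 74758 scaled CPM in footprints and 92306, 205220 and 169460 in mRNA, so mRNA library 1 was lowest and all footprint values lay below it. The count of higher genes was 16 without mRNA library 2 and 3 without mRNA library 3. Elongation factors and other TOP mRNAs gave 6 lower and 4 higher of 13 tested, with a median of -0.68.

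RPLP0, a protein of the ribosomal stalk, had 57.3, 58.2 and 66.02 scaled CPM in footprints and 5048, 9540 and 9513 in mRNA, a log2 ratio of -7.05 (SE 0.91, adjusted p = 9.25e-14). RPS2, a protein of the small subunit, had 45.99, 44.3 and 52.3 in footprints and 5761, 8544 and 8912 in mRNA, a log2 ratio of -7.35 (SE 0.92, adjusted p = 1.89e-14). RPLP1 and RPSA stood at -2.88 and -4.21. EEF1A1, which brings aminoacyl-tRNA to the ribosome, had 274, 279 and 290.2 in footprints and 3896, 7829 and 4227 in mRNA, a log2 ratio of -4.24 (SE 0.77, adjusted p = 1.62e-07). In these 3 abundant genes every mRNA value was many times the highest footprint value. EEF2, the translocase, stood at -2.82, and PABPC1, which binds the poly(A) tail, at -2.20 (adjusted p = 0.000816). RACK1, a scaffold on the small subunit, stood at -1.91 and lost its call without mRNA library 3 (adjusted p = 0.119). NPM1, a nucleolar chaperone, was higher at 2.32.

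Many of these genes have processed pseudogenes that share their sequence, and footprints are short. When counts of pseudogenes named after a coding gene were added to that gene, an alternative chosen after the data were seen, EEF1A1 had 65964 footprints in place of 4066 and a log2 ratio of -0.23 (adjusted p = 0.743). PABPC1 then stood at -0.84 and was no longer called (adjusted p = 0.181). RPLP0 stood at -3.45 and RPS2 at -4.52, both still lower. With these counts 32 ribosomal protein genes were lower and 12 higher, with a median of -0.60, and the other TOP mRNAs gave 3 lower and 6 higher with a median of 1.03. The sign of the median of the latter list thus turned.

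The first bases of TOP mRNAs carry the pyrimidine run that defines them. They are shown here for EEF1A1 and for the lowest and highest ratios in a subset of ribosomal protein genes. That subset holds abundant genes with a RefSeq promoter entry. Each line gives the first 20 bases from the RefSeq transcript start on GRCh38.p14, 5′ to 3′, and capitals mark the unbroken run of C and T from the first base where that base is C.
RPLP0 (chr12:120201092-120201111, minus strand): CCTTCTCTCgccaggcgtcc
RPL12 (chr9:127451387-127451406, minus strand): CCTCTCggctttcggctcgg
RPL39 (chrX:119791611-119791630, minus strand): CCCTCCTCTTCCTTTCTCCg
EEF1A1 (chr6:73521013-73521032, minus strand): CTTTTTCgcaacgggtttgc
RPS24 (chr10:78033863-78033882, plus strand): CTCTTTTCCTCCTTggctgt
RPL38 (chr17:74203678-74203697, plus strand): CTTTTTCgtccttttccccg
RPL11 (chr1:23691779-23691798, plus strand): aaggccctcggccggaagct
The runs are 9, 6, 19, 7, 14 and 7 bases long in the first 6, and none stands at the annotated start of RPL11. All but RPLP0 and EEF1A1 were chosen after their values were seen. The log2 ratios were -7.05 for RPLP0, -5.49 for RPL12, -5.17 for RPL39 and -4.24 for EEF1A1, against 1.59 for RPS24, 1.70 for RPL38 and 1.73 for RPL11. Genes with such a run therefore lay at both ends of this subset. Over all 79 ribosomal protein genes the log2 ratios ran from -7.35 to 4.85, so the ends of the subset are not those of the full list. Over all 10654 tested genes with a RefSeq promoter, 577 (5.42%) began with a run of at least 5 pyrimidines from a C and had a median log2 ratio of -0.30, beside -0.18 for the 10077 without. Without the ribosomal protein and TOP lists, 527 genes with the run had a median of -0.24. A like run stood at 4.04% of 27305 RefSeq starts. Of the 79 ribosomal protein genes, 63 (79.7%) had a promoter entry, and 43 of these (68.25%) had the run. Those 43 had a median of -1.40, beside -1.76 for the 20 without, given as a description. Lack of a run at the annotated start was not taken to show that an mRNA is not a TOP mRNA.

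**Figure D2:**
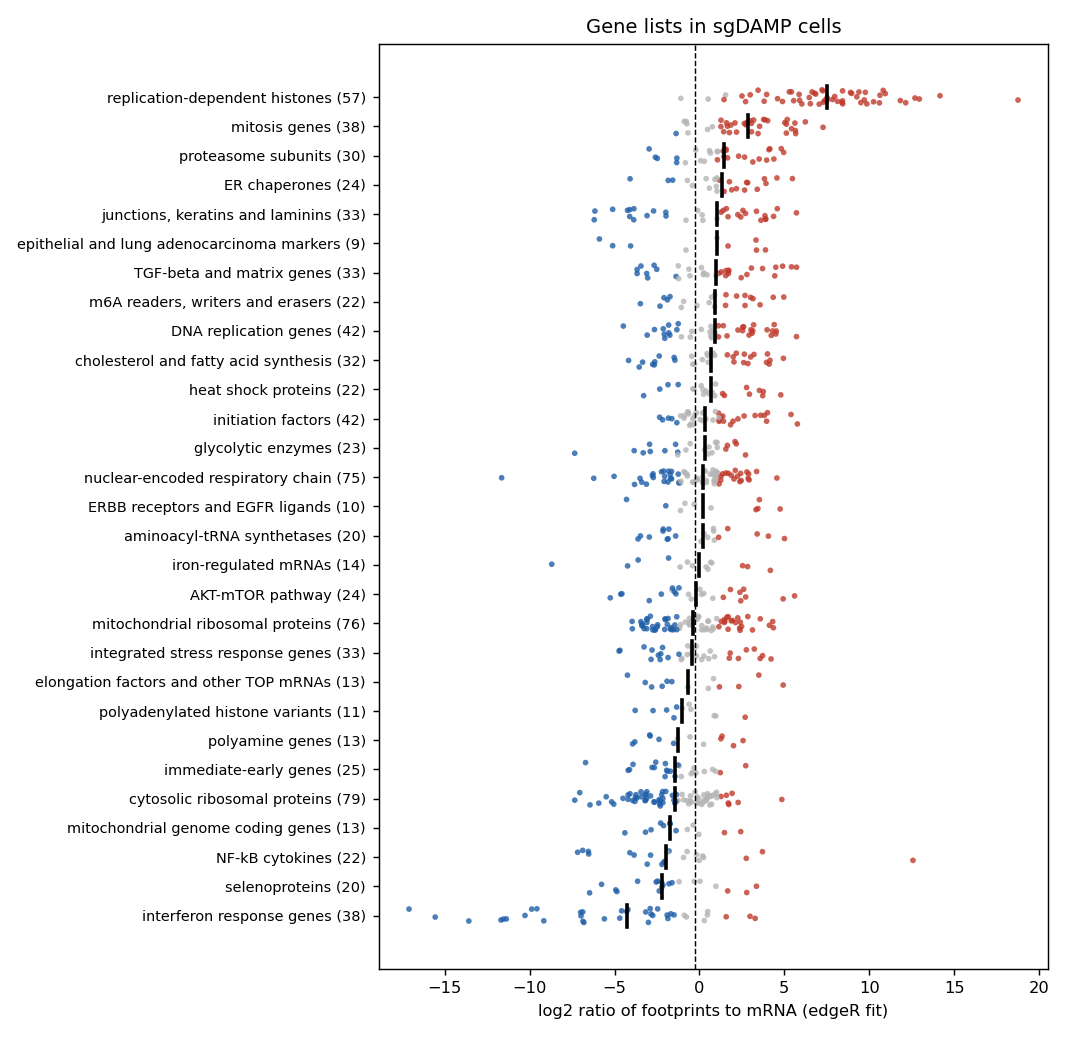
Each point is a tested gene at its log2 ratio of footprints to mRNA, grouped by list with the number tested in brackets, red where called higher, blue where called lower and grey otherwise. The thick bar is the list's median and the dashed line is the median of all tested genes at -0.27. Replication-dependent histones lie at the top with a median of 7.49 and interferon response genes at the bottom with -4.25.

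Of 42 initiation factors, 17 were higher in footprints and 5 lower, beside 31.0% and 35.3% over all genes. Their median log2 ratio was 0.31, and 1.03 with counts of named pseudogenes added, beside -0.27 over all genes. Leaving out mRNA library 3 gave 10 higher and 2 lower. EIF1, which helps the scanning ribosome select the start codon, had 2602, 2584 and 2543 scaled CPM in footprints and 703, 752 and 718 in mRNA. All footprint values lay above all mRNA values, at a log2 ratio of 1.83 (SE 0.53, adjusted p = 0.0011), and the call was lost without mRNA library 3 (adjusted p = 0.0794). EIF3K, EIF3I and EIF3B, subunits of the complex that recruits the small subunit, stood at 1.41, 1.17 and 1.13, and none of these 3 was called without mRNA library 3. EIF3I and EIF3B also lost their calls under upper-quartile and total-count scaling.

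Aminoacyl-tRNA synthetases, which charge tRNAs, gave 5 higher and 9 lower of 20, beside 31.0% and 35.3% over all genes. Their median of 0.18 turned to -0.01 under upper-quartile scaling. Without mRNA library 2, 8 were higher, and without mRNA library 3, 3 were. TARS1, the threonyl enzyme, had 778, 771 and 772 scaled CPM in footprints and 41.3, 62.4 and 35.8 in mRNA (log2 ratio 4.06, SE 0.49, adjusted p = 2.1e-15). VARS1, the valyl enzyme, had 24.9, 26.5 and 22.1 in footprints and 366, 181 and 356 in mRNA (log2 ratio -3.62, SE 0.68, adjusted p = 4.84e-07). The pair differed in direction, with no overlap between assays in either gene. AARS1 stood at -1.81 and lost its call without mRNA library 3 (adjusted p = 0.0802). MARS1 stood at 1.13, a call that upper-quartile or total-count scaling ended.

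Genes of the integrated stress response gave 8 higher and 11 lower of 33, with a median of -0.44, near the shares of all genes (31.0% and 35.3%). ATF4, the transcription factor that leads this response, had 107, 107 and 119 scaled CPM in footprints and 353, 689.9 and 465 in mRNA. All footprint values were lower, at a log2 ratio of -2.18 (SE 0.63, adjusted p = 0.0013). SLC7A5, a transporter of large neutral amino acids that ATF4 induces, had 208, 214 and 216 in footprints and 2559, 1229 and 2337 in mRNA (log2 ratio -3.26, adjusted p = 1.38e-05). PPP1R15A, which leads the phosphatase that ends the response, and TRIB3, a pseudokinase, stood at -2.85 and -2.32, both lower.

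Both ferritin chains were lower in footprints. FTH1, the heavy chain of the iron store, had 6.66, 10.4 and 7.04 scaled CPM in footprints and 2809, 3609 and 3694 in mRNA, a log2 ratio of -8.70 (SE 0.97, adjusted p = 7.17e-18). FTL, the light chain, had 741, 762 and 721 in footprints and 11881, 13505 and 16395 in mRNA, a log2 ratio of -4.23 (SE 0.78, adjusted p = 2.41e-07). Every footprint value of both chains lay below every mRNA value. With counts of named pseudogenes added, FTH1 stood at -3.57 (adjusted p = 4.14e-06) and FTL at -4.30. Over 14 mRNAs known for iron-responsive elements or iron control, 3 were higher and 4 lower, beside 31.0% and 35.3% over all genes. Their median of -0.01 was 0.06 with DESeq2 size factors. ACO1, the iron regulatory protein that binds those elements, had 391, 376 and 368 in footprints and 82.03, 55.1 and 58.4 in mRNA (log2 ratio 2.54, adjusted p = 5.59e-07). SDHB stood at -1.82, a call that ended without mRNA library 3 (adjusted p = 0.0541).

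Polyamine genes gave 4 higher and 6 lower of 13, beside 31.0% and 35.3% over all genes. Their median was -1.29, and only 1 was higher without mRNA library 1 or without mRNA library 3. OAZ1, the antizyme whose full frame needs a frameshift that polyamines promote, had 35.8, 30.9 and 35.4 scaled CPM in footprints and 362, 549 and 517 in mRNA (log2 ratio -3.81, SE 0.70, adjusted p = 2.8e-07). ODC1, the enzyme that antizyme sends to the proteasome, had 22.2, 20.5 and 19.1 in footprints and 149, 214 and 108 in mRNA (log2 ratio -2.93, adjusted p = 1.44e-05). AMD1, whose mRNA has an upstream frame that polyamines act on, had 174, 184 and 183 in footprints and 30.7, 34.9 and 25.7 in mRNA (log2 ratio 2.57, adjusted p = 3.02e-07). Thus ODC1 and OAZ1 were lower and AMD1 was higher, each without overlap. SRM, spermidine synthase, stood at -3.94, while SMOX at -1.52 and SAT1 at 1.26 lost their calls without mRNA library 3.

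Selenoproteins insert selenocysteine at a UGA codon. Of 22 genes, 20 were tested, with 3 higher and 13 lower, beside 31.0% and 35.3% over all genes. The list's median was -2.18. GPX1, a glutathione peroxidase, had 11.3, 12.03 and 11.9 scaled CPM in footprints and 726, 1187 and 1218 in mRNA (log2 ratio -6.47, SE 0.85, adjusted p = 3.12e-13). TXNRD1, a thioredoxin reductase with its selenocysteine near the end of the protein, had 3621, 3525 and 3433 in footprints and 458, 697 and 382 in mRNA (log2 ratio 2.78, SE 0.52, adjusted p = 3.44e-07). The 2 genes lay on opposite sides, GPX1 lower and TXNRD1 higher in each library. TXNRD1 was also 1 of 6 genes whose footprint libraries differed beyond sampling. GPX2 stood at -5.77, and GPX4 at -2.15 with its call lost without mRNA library 3 (adjusted p = 0.0657).

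Genes of the mitochondrial genome are read by mitochondrial ribosomes, which cycloheximide does not stall, and the part of that in the result was not tested. Of 13, 8 were lower and 2 higher, beside 35.3% and 31.0% over all genes, with a median of -1.72. Without mRNA library 3, 3 were lower. MT-CO2, a subunit of complex IV, had 398, 398 and 398 scaled CPM in footprints and 3634, 3738 and 3439 in mRNA (log2 ratio -3.18, SE 0.71, adjusted p = 2.6e-05). MT-CO3, from the same complex, had 1122, 1084 and 1061 in footprints and 5081, 5891 and 4953 in mRNA (log2 ratio -2.29, adjusted p = 0.00156). Neither gene's footprints overlapped its mRNA values. MT-ND3 and MT-CO1 stood at -2.85 and -1.72. The calls of MT-CO3 and MT-CO1 ended without mRNA library 3 (adjusted p = 0.0765 and 0.156).

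Nuclear-encoded respiratory chain genes gave 19 higher and 22 lower of 75 tested and a median of 0.22, both shares below the 31.0% and 35.3% of all genes. There were 32 higher when mRNA library 2 was left out, and 12 higher and 13 lower when mRNA library 3 was. With counts of named pseudogenes added, 22 were higher and 16 lower, with a median of 0.57, so the balance of calls turned. ATP5F1B, the catalytic subunit of ATP synthase, stood at -2.77, UQCRC1, of complex III, at -3.50, and ATP5MC3, of the membrane ring, at -2.24, all lower. ATP5F1C was higher at 1.15, a call that most alternatives ended. UQCR11, named after its values were seen, had no footprint and 1235 mRNA counts, which makes its footprints at least 115-fold lower. Mitochondrial ribosomal proteins gave 22 higher and 30 lower of 76 tested, near the shares of all genes. Their median was -0.40, and 14 were higher without mRNA library 3. MRPL24 and MRPL28 stood at -3.45 and -3.10, both lower in footprints. MRPL41 at -1.34 and MRPS7 at 1.28 lost their calls without mRNA library 3.

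Most mitosis genes were higher in footprints. Of 38 tested, 31 were higher and 1 lower, beside 31.0% and 35.3% over all genes. The list's median was 2.88 beside -0.27 over all genes. Without mRNA library 2, 3 were lower, and without mRNA library 3, AURKB lost its call. CCNB1, the cyclin that drives entry into mitosis, had 969, 986 and 946 scaled CPM in footprints and 80.9, 135 and 102 in mRNA (log2 ratio 3.19, SE 0.49, adjusted p = 7.73e-10). All 3 footprint values lay above all 3 mRNA values. BUB3, of the spindle checkpoint, CKS2, a CDK subunit, and PLK1, a mitotic kinase, stood at 3.54, 2.18 and 1.64. The kinase AURKB, the single member called lower, stood at -1.38, the motor KIF11 at 6.23 and the kinetochore protein CENPF at 7.28, 3 genes named after their values were seen.

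DNA replication genes gave 20 higher and 11 lower of 42, beside 31.0% and 35.3% over all genes. Their median was 0.88, and 7 were lower without mRNA library 3. RRM2, the small subunit of ribonucleotide reductase, had 844, 850.3 and 812 scaled CPM in footprints and 60.05, 48.7 and 49.8 in mRNA (log2 ratio 3.98, SE 0.49, adjusted p = 8.12e-15). POLD2, a subunit of DNA polymerase delta, had 16.9, 16.2 and 15.1 in footprints and 336, 319.8 and 423 in mRNA (log2 ratio -4.49, SE 0.73, adjusted p = 4.32e-09). RRM2 footprints thus exceeded every mRNA value and POLD2 footprints fell short of every one. Members of 1 complex stood on both sides. MCM4, of the replicative helicase, stood at 2.54 and MCM7 at -2.04, the latter not called without mRNA library 3 (adjusted p = 0.0525).

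MDM2, a ubiquitin ligase, had 869.5, 852 and 868 scaled CPM in footprints and 13.8, 13.8 and 8.11 in mRNA (log2 ratio 6.18, SE 0.52, adjusted p = 1.01e-30). CDKN1A, the p21 inhibitor of cyclin-dependent kinases, had 380.1, 379 and 401 in footprints and 1447, 868 and 1217 in mRNA (log2 ratio -1.61, adjusted p = 0.018), a call lost without mRNA library 3 (adjusted p = 0.172). MDM2 and CDKN1A thus lay in opposite directions, each without overlap between the assays. PHLDA3, an inhibitor of AKT, stood at -4.25, and DDB2, a damage sensor, at 1.16, a call that several alternatives ended. Among tumour suppressor genes looked up after the values were seen, CDKN2A had no count in any of the 6 libraries, CDKN2B 2 footprints and no mRNA count, and the neighbouring MTAP 2 and 3 counts.

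Chaperones of the endoplasmic reticulum gave 13 higher and 3 lower of 24 and a median of 1.32, beside 31.0% higher and 35.3% lower over all genes. Without mRNA library 3, 11 were higher and 1 was lower. HSP90B1, the reticulum's HSP90, had 2233, 2219 and 2209 scaled CPM in footprints and 46.8, 58.3 and 45.02 in mRNA (log2 ratio 5.47, SE 0.53, adjusted p = 1.32e-23). CALR, a lectin chaperone, had 2591, 2549.6 and 2519 in footprints and 366, 401 and 445 in mRNA (log2 ratio 2.66, adjusted p = 9.85e-07). Both were higher in every footprint library, as was the membrane-bound lectin CANX at 3.92. XBP1, a factor of the unfolded protein response on this list that was named after its value was seen, was lower at -4.09, and P4HB, a disulfide isomerase, stood at -1.84 with its call lost without mRNA library 3 (adjusted p = 0.116).

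Heat shock proteins gave 8 higher and 4 lower of 22, beside 31.0% and 35.3% over all genes. Their median was 0.65, and 2 were lower without mRNA library 3. HSP90AB1 stood at 1.47 and the chaperonin subunits CCT7 and CCT3 at 1.36 and -1.86, 3 calls that ended without mRNA library 3. HSPA8, the constitutive HSP70, stood at -2.34 and at -0.53 with counts of named pseudogenes added (adjusted p = 0.432). Proteasome subunits gave 17 higher and 5 lower of 30 tested, beside the same shares of all genes, with a median of 1.42. Leaving out mRNA library 3 gave 10 higher and 3 lower. PSMA4, of the core ring, had 1808, 1774 and 1789 scaled CPM in footprints and 51.3, 292 and 126 in mRNA (log2 ratio 3.52, adjusted p = 3.35e-11), so its footprints lay above all mRNA values although those differed several-fold. PSMC4, PSMB3 and PSMB6 stood at 1.40, 1.57 and 1.56, all 3 not called without mRNA library 3.

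In metabolism, cholesterol and fatty acid synthesis gave 14 higher and 9 lower of 32, beside 31.0% and 35.3% over all genes, with a median of 0.66. FASN, fatty acid synthase, had 83.3, 77.01 and 86.5 scaled CPM in footprints and 1063, 479.9 and 972 in mRNA (log2 ratio -3.35, SE 0.70, adjusted p = 5.61e-06). SREBF1, the factor that induces it, was also lower at -3.55. SCD, a desaturase, was higher at 2.03, and FDFT1, squalene synthase, stood at 1.64 with its call lost without mRNA library 3 (adjusted p = 0.0625). Glycolytic enzymes gave 5 higher and 8 lower of 23, beside the same shares of all genes. Their median was 0.30, and 2 were higher and 5 lower without mRNA library 3. LDHA, which makes lactate, had 7004, 6885 and 6825 in footprints and 1353, 1969.8 and 1294 in mRNA (log2 ratio 2.17, SE 0.53, adjusted p = 0.000122). PKM, which makes pyruvate, had 1125, 1102 and 1159 in footprints and 9649, 6398 and 9925 in mRNA (log2 ratio -2.94, SE 0.71, adjusted p = 9.89e-05). These 2 enzymes of adjacent steps lay on opposite sides. With counts of named pseudogenes added, PKM stood at -0.95 and was not called (adjusted p = 0.172). Calls of LDHA, of ENO1 at -2.04 and of PFKP at 1.55 ended without mRNA library 3 (adjusted p = 0.0634, 0.146 and 0.109).

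Signalling genes varied in direction. MYC had 329, 346 and 328 scaled CPM in footprints and 61.4, 39.1 and 51.4 in mRNA, higher without overlap at a log2 ratio of 2.72 (SE 0.48, adjusted p = 6.02e-08). Immediate-early genes as a list, which includes MYC, gave 2 higher and 14 lower of 25 tested, beside 31.0% and 35.3% over all genes. The list's median was -1.44, and 1 member was higher without mRNA library 3. FOSL1 and JUND, subunits of AP-1, stood at -4.20 and -3.91, both lower, and DUSP1, a phosphatase of MAP kinases, at -1.71 with its call lost without mRNA library 3 (adjusted p = 0.0845). NF-kB cytokines and regulators gave 3 higher and 12 lower of 22 tested, beside the same shares of all genes, with a median of -1.98. CXCL5, a neutrophil chemokine, had 1.33, 1.60 and 1.21 in footprints and 216, 229.95 and 157 in mRNA (log2 ratio -7.17, adjusted p = 4.54e-16). CXCL1 and NFKBIA, the inhibitor of NF-kB, were also lower at -2.21 and -3.08, and RELB stood at -1.80 with its call lost without mRNA library 3 (adjusted p = 0.0518). CXCL6, a relative of CXCL5 named after its values were seen, went the other way with 664 footprints and no mRNA count, at least 792-fold higher. Having no mRNA count, it passed the filter only through its footprints.

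Genes of the AKT-mTOR pathway gave 8 higher and 9 lower of 24 tested, near the shares of all genes (31.0% and 35.3%). Their median was -0.23, and 5 were lower without mRNA library 3. AKT1, the kinase, had 5.11, 3.81 and 7.04 scaled CPM in footprints and 215, 144 and 251 in mRNA (log2 ratio -5.25, SE 0.75, adjusted p = 2.35e-11). AKT2 and AKT1S1, an inhibitor within mTORC1, stood at -4.57 and -4.64. All 3 were lower, and MLST8, shared by both mTOR complexes, stood at -1.59 with its call lost without mRNA library 3 (adjusted p = 0.136). Readers, writers and erasers of m6A gave 10 higher and 5 lower of 22, beside 31.0% and 35.3% over all genes. Their median was 0.89, and 3 were lower with counts of named pseudogenes added. HNRNPA2B1 and IGF2BP1, both m6A-related binders, stood at 1.56 and 1.54, and neither was called without mRNA library 3. HNRNPC stood at -3.48 and, with counts of named pseudogenes added, at -0.85 (adjusted p = 0.202). RBMX stood at -1.89 (adjusted p = 0.00292) and turned to 1.86 with those counts (adjusted p = 0.000377).

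EGFR, the receptor known as mutant in this line, had 647, 637 and 647 scaled CPM in footprints and 92.8, 48.2 and 51.4 in mRNA. All footprint values lay above all mRNA values, at a log2 ratio of 3.33 (SE 0.49, adjusted p = 6.06e-11). Of 10 tested ERBB receptors and EGFR ligands, 4 were higher and 2 lower, beside 31.0% and 35.3% over all genes. Their median of 0.18 was -0.01 under upper-quartile scaling and -0.02 without mRNA library 3. When mRNA library 2 was left out, 4 were lower. EREG, a ligand of EGFR, had 381, 375 and 337 in footprints and 13.7, 15.6 and 11.2 in mRNA (log2 ratio 4.75, SE 0.49, adjusted p = 5.66e-21). AREG, a ligand of EGFR, and NRG1, a ligand of ERBB3, stood at 3.53 and 3.44, both higher.

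Junctions, keratins and laminins gave 16 higher and 12 lower of 33 tested, beside 31.0% and 35.3% over all genes, with a median of 1.03. KRT8, a keratin of simple epithelia, had 290.4, 293 and 314 scaled CPM in footprints and 10399, 8479 and 12195 in mRNA (log2 ratio -5.11, SE 0.82, adjusted p = 2.63e-09). With counts of named pseudogenes added it stood at -2.35 (adjusted p = 0.00135). KRT19, a keratin from the epithelial markers, was higher at 3.89, with 166 footprints and only 40 mRNA counts in all. CDH1, E-cadherin, was higher at 1.68. KRT8 and KRT19 thus lay on opposite sides, but KRT19 was near the floor in mRNA, at 0.97, 0.42 and 0.92 scaled CPM. KRT81 and LAMA5, a laminin chain, were lower at -4.11 and -3.87, and CTNNA1, which links cadherins to actin, was higher at 2.43. Genes of TGF-beta signalling and matrix gave 16 higher and 8 lower of 33 tested, beside the same shares of all genes, with a median of 0.97. FN1, fibronectin, had 49.8, 50.9 and 47.5 scaled CPM in footprints and 610.2, 275 and 393 in mRNA (log2 ratio -3.11, adjusted p = 1.12e-05). Its footprint values all lay below its mRNA values, while TGFBI, an adhesion protein of the matrix, was higher at 2.46 and TGFB1, the ligand, lower at -3.67.

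Interferon response genes were collected as a list after CCL5, IFNL1, IFNB1 and OASL had been seen among the lowest, so their direction is a description. Of 41 genes, 38 were tested, with 30 lower and 3 higher, beside 35.3% and 31.0% over all genes. The list's median log2 ratio was -4.25. With the 11 genes that had no count in 1 assay set at their bound, the median was -3.09. Their summed level was 711 to 742 scaled CPM in footprints and 5146 to 6932 in mRNA. ISG15, a ubiquitin-like protein that interferon induces, had 15.996, 12.2 and 13.9 in footprints and 1255, 2079 and 1943 in mRNA (log2 ratio -6.98, SE 0.88, adjusted p = 3.51e-14). The median of the list was -4.68 in sgControl cells.

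**Figure D3:**
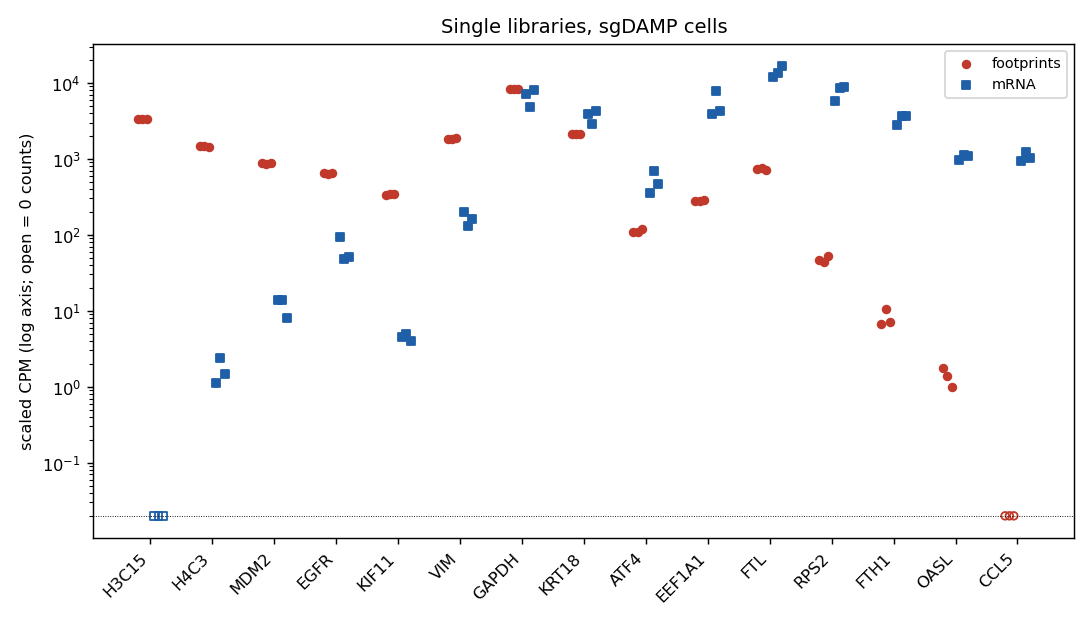
Each gene has 3 red circles for the footprint libraries and 3 blue squares for the mRNA libraries, in scaled CPM on a log axis, with open symbols at the lower edge for 0 counts. The 3 circles nearly coincide in each gene with footprints in hand, H3C15 has only open squares, CCL5 has only open circles, and in GAPDH both assays lie close together.

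Properties that the choice of libraries did not use were set beside the ratio. Promoter GC, from 250 bases before to 50 after the RefSeq start, was known for 10654 of 13068 tested genes (81.5%). In 5 groups of near-equal size and rising GC the median log2 ratio was 0.33, 0.12, -0.24, -0.29 and -0.85, a step down at each. In the lowest group (27.7% to 56.7% GC) 831 genes were higher and 636 lower, and in the highest (74% to 94%) 503 and 857. The Spearman correlation across these genes, given as a description, was -0.119. In 5 groups of rising mean mRNA level the medians were 0.59, 0.60, 0.08, -0.86 and -1.61, but this level is also the denominator of the ratio. Genes with almost no mRNA passed the filter only through their footprints, so the filter also shaped the lowest group. By the number of pseudogenes named after a gene, 11031 genes with 0 had a median of -0.34, 1585 with 1 to 3 had 0.25, 332 with 4 to 10 had -0.10 and 120 with 11 to 137 had -1.12. In the last group 57 were lower and 23 higher.

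**Figure D4:**
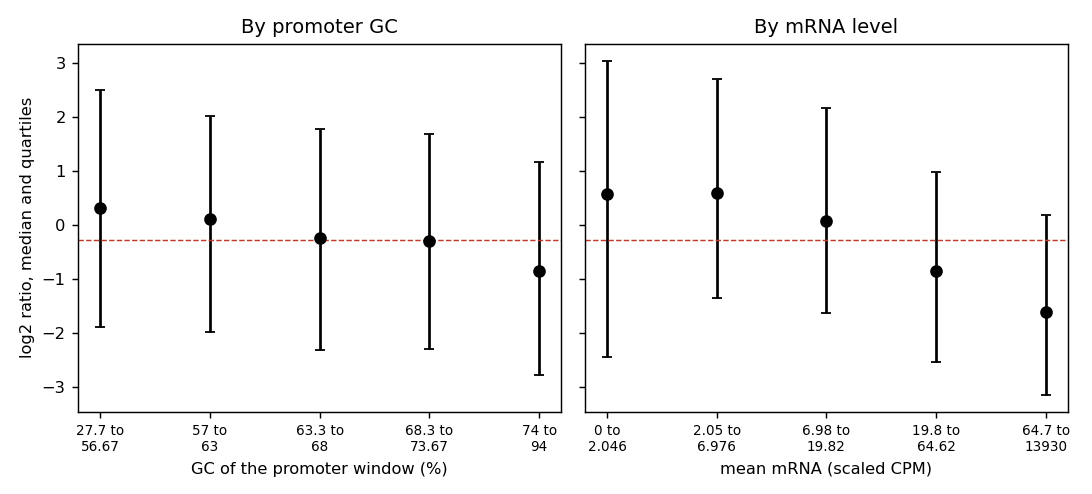
Points are medians and bars run from the lower to the upper quartile of the log2 ratio in 5 groups by promoter GC (left, in percent) and of mean mRNA level (right, in scaled CPM). The dashed line is the median of all tested genes at -0.27. Medians fall from 0.33 to -0.85 over promoter GC and from 0.59 to -1.61 over mRNA level. That level is also the ratio's denominator, and the filter on low counts shaped its lowest group.

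The same ratio was then compared between sgDAMP and sgControl cells, the question being whether the knockout changed translation beyond mRNA. The difference is the sgDAMP log2 ratio minus the sgControl log2 ratio, tested as an interaction term over 13367 genes with scaling within each assay. Each condition gave 1 summed footprint sample and 3 mRNA libraries. With no footprint replicates in the test, its p-values rest on the spread of the mRNA libraries. The difference was then read gene by gene. It was called for 41 genes (0.307%) lower in sgDAMP and for 1 gene (0.00748%) higher, and at an unadjusted p under 0.05 for 284 and 467. In sgControl alone 4142 (31.9%) genes were higher in footprints and 4746 (36.5%) lower. Of the 42 called genes, 32 had sgControl footprint libraries that differed beyond sampling. Without such genes a single gene, lower in sgDAMP, was called under an alternative chosen after the data were seen. There the differences of EZH2 and RND1 stayed at -5.29 and 5.28 but were not called (adjusted p = 0.0619 and 0.126). With the footprint libraries as separate samples 182 genes were lower and 251 higher, and with the replicate block 97 and 116, so the balance of lower and higher calls turned.

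BCL2L1 (chromosome 20, 31664452 to 31723963), an inhibitor of apoptosis, had 21, 23 and 19 footprints in sgDAMP libraries and 8381, 8502 and 8114 in sgControl libraries, with 23260 and 21710 mRNA counts. Scaled on the total coding count, without TMM, its footprints were 340.4-fold lower, and the log2 difference was -8.67 (SE 0.70, adjusted p = 0.000237). TWIST1, a factor of epithelial-mesenchymal transition, had 13, 18 and 24 against 4328, 3457 and 3879 footprints (log2 difference -7.39, SE 0.72, adjusted p = 0.000861). CDK4, a kinase of the cell cycle, had 145, 150 and 149 against 17666, 17093 and 14715 (log2 difference -6.86, SE 0.68, adjusted p = 0.000861), with 14790 and 13931 mRNA counts. In all 3 genes the 2 sets of footprint libraries were far apart while the mRNA counts of BCL2L1 and CDK4 were near each other. MDK, a growth factor, had 33 against 1728 footprints (log2 difference -5.66, adjusted p = 0.00808), and EZH2, a histone methyltransferase, 59 against 1668 (log2 difference -5.29, adjusted p = 0.0117).

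EGFR (chromosome 7, 55019017 to 55211628) had 2914, 3177 and 3216 footprints in sgDAMP and 47501, 63989 and 56520 in sgControl libraries. Its mRNA counts were 3376 and 3401. Scaled on the total coding count, without TMM, its footprints were 15.5-fold lower with little change in mRNA counts. The log2 difference was -4.09 (SE 0.65, adjusted p = 0.0162). MDM2 had 3914, 4247 and 4315 against 53845, 57314 and 58531 footprints with 621 and 549 mRNA counts. On the same scale its footprints were 11.7-fold lower, at a log2 difference of -3.89 (SE 0.67, adjusted p = 0.0249). ENO1 had 6728, 7593 and 7472 against 147546, 163938 and 135970 (log2 difference -3.90, SE 0.64, adjusted p = 0.0198). These 3 genes were named as anchors or list members rather than among the 5 lowest. The calls of EGFR, ENO1 and MDM2 ended without sgControl mRNA library 2 (adjusted p = 0.0579, 0.0669 and 0.0787), that of ENO1 also without sgDAMP mRNA library 3 and that of MDM2 also without sgDAMP mRNA library 1 or with scaling on the total coding count. RND1, a small GTPase and the single gene higher in sgDAMP, had 15, 12 and 17 against 1, 0 and 0 footprints (log2 difference 5.27, SE 0.92, adjusted p = 0.0272), and was not called without sgDAMP mRNA library 1 or 3, sgControl mRNA library 2 or sgControl footprint library 2 or 3. DSP, beside the knockout target, was not called, with a log2 difference of 0.55 (adjusted p = 0.9998).

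**Figure D5:**
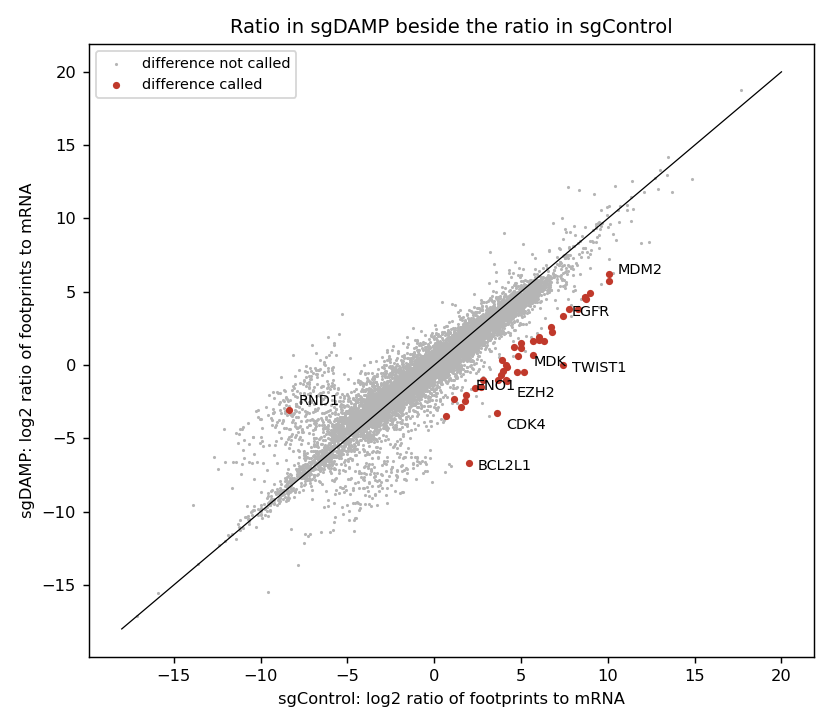
Each point is a coding gene at its log2 ratio of footprints to mRNA in sgControl (x axis) and in sgDAMP (y axis), with the line of equal ratios, and genes whose difference was called are red. BCL2L1, TWIST1, CDK4, MDK, EZH2, EGFR, MDM2 and ENO1 lie below the line, and RND1 lies above it.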

How the data were processed

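The authors deposited 1 HTSeq table of raw counts per library, with counts for 61487 genes and for reads not assigned to a gene. Per the submitters' processing notes reads were handled on build GRCh38 with HTSeq 0.11.2, HISAT2 2.1.0, Trimmomatic 0.30 and SAMtools 1.10, and edgeR is also named. Of the annotation, the strand setting and the handling of reads with several places, the sources used here say nothing. Low-quality reads were 258988 to 293400 in the sgDAMP mRNA libraries and 0 in the footprint libraries, so settings may have differed between assays.

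Gene types came from RefSeq on GRCh38.p14: 40516 IDs matched, 277 of them by an older symbol, and 19310 coding genes entered. NDUFA4 had counts but matched no coding gene by its symbol and was not tested. Rows that name no gene stayed out of library sizes. Genes passed edgeR's filterByExpr at a minimum count of 10, and TMM scaling used coding genes only. edgeR 4.0.16 in R 4.3.3 fitted the sum of the 3 footprint libraries against 3 mRNA libraries by the quasi-likelihood test, with Benjamini-Hochberg adjustment and a threshold of 0.05. Counting intervals are exact at 95% and cover counting error only. Folds given as at least a value, for genes with no count in 1 assay, use the floor of 3 counts over the group. They are not bounds of these intervals, which reach lower, to 46829-fold for H3C15 beside 57584-fold at the floor. Alternatives used other scalings, filters and samples, DESeq2 1.42.0 and limma 3.58.1.

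The fit was tested on simulated data with known changes, and at the smaller change it called raised genes more often than lowered ones. The text names a set of fixed genes, the 10 highest and 10 lowest called ratios at a mean log2 CPM of at least 5, up to 4 called members per list, and up to 5 called genes per direction for the difference. The members and lists were chosen with earlier results of these data known. Same-numbered footprint and mRNA libraries had deviations that correlated at -0.01, 0.02 and 0.03 over 7624 genes. The Scramble libraries were not used here. Some genes and 1 list are not reported here.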

Additional observations from a re-analysis of the deposited data

Results flagged for a closer look

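Genes named for a difference between sgDAMP and sgControl in the ratio of footprints to mRNA stand here because the interaction term passed edgeR's adjusted threshold. The log2 difference, sgDAMP minus sgControl, was -8.67 for BCL2L1, -7.39 for TWIST1, -6.86 for CDK4, -5.66 for MDK and -5.29 for EZH2, the 5 lowest. It was -4.09 for EGFR, -3.90 for ENO1 and -3.89 for MDM2, and 5.27 for RND1. In each of these genes the 3 footprint libraries of sgDAMP lay wholly to 1 side of the 3 of sgControl. The genes were picked by a test on these same footprints, so this separation adds no support. The share of all genes with such a separation was not counted. In 32 of the 42 called genes the sgControl footprint libraries differed from each other beyond sampling, and the part of this in the result was not tested.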

How the results depend on the processing

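Calls in sgDAMP rest on the spread of 3 mRNA libraries, since the footprint libraries differ beyond sampling in only 6 genes, and genes with few counts in 1 assay have wide intervals. Leaving out 1 library gave 3323 to 4532 genes higher and 3781 to 5004 lower. With 3 footprint libraries as separate samples 4452 were higher and 5365 lower, and with the replicate block 4537 and 5357. Genes without an overlapping span gave 1662 and 1882, with fewer genes tested. The scalings shifted the median of all genes by 0.08 (DESeq2), -0.19 (upper quartile) and -0.12 (total count). For single genes, 3128 values kept their direction and side of the threshold, 133 were no longer called, 10 became called, and RBMX turned to 1.86 with pseudogene counts added.

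The difference from sgControl gave 0 to 14 genes higher in sgDAMP and 21 to 52 lower when 1 library was left out, with 14 higher without sgControl mRNA library 3, 7 higher without sgDAMP mRNA library 2, 24 lower without sgDAMP mRNA library 3 and 21 lower without sgControl mRNA library 2. With footprint libraries as separate samples 251 were higher and 182 lower, and with the replicate block 116 and 97. Total-count scaling gave 2 higher, DESeq2 size factors 5, and leaving out genes unstable in sgControl 1 lower. The cause was not tested. Protein length and N-terminal features were not run.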
